A study of Mus musculus with 2 samples.

Results

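Transcripts of respiratory complex I were followed in RNA from vesicles released by mouse cytotoxic T lymphocytes, killer T cells that destroy infected cells and tumours. Members were the genes whose array symbol was Nduf followed by a, b, c, s or v and a number, Ndufab1, or Ndufaf with a number. That rule took 42 of the 19316 genes named on the array, 35 of them subunits and 7 assembly factors, on 44 probes. The labels describe medium of cells cultured for 7 days, cleared of protein on a 750 kDa ultrafiltration membrane and separated on a DEAE column, a positively charged resin from which more negative particles leave at higher salt. The fraction eluted with 0.3 M NaCl and the fraction eluted with 0.5 M NaCl were each measured on 1 single-colour Cy5 array of amplified total RNA. Strain, age and genotype of the mice, how the cells were stimulated and how many cultures were pooled are not stated in the labels. With 1 array per fraction no test between fractions can be made, and every difference describes this pair of arrays.

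Complex I is the entry point of the mitochondrial respiratory chain. It takes electrons from NADH in its N module, passes them along iron-sulfur clusters to ubiquinone in its Q module, and pumps protons through a membrane arm whose pump subunits are encoded by mitochondrial DNA. The nuclear subunits divide into a catalytic core and accessory subunits around it, and assembly factors help build the complex without remaining in it. Activated T cells are known to use both glycolysis and respiration.

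Values are probe intensities in arbitrary units. Differences are log2 intensity at 0.5 M minus log2 intensity at 0.3 M after each array was centred on its median over the probes that both arrays measured, which took out a shift of -0.30. A difference of 1 is thus 2-fold after centring. Intensities of different probes are not amounts of RNA on 1 scale, so they are used here to compare fractions and to find genes of like brightness. A value on both arrays was present for 39 of the 42 members (92.9%), against 13735 of 19316 genes (71.1%). The exceptions were Ndufb2, a subunit of the distal membrane arm, the mitochondrial acyl carrier protein Ndufab1 and the assembly factor Ndufaf5. Their intensities at 0.3 M were 4, 4 and 6, and all had an empty cell at 0.5 M. Of the 1943 probes at 6 or below at 0.3 M, 68.1% were empty at 0.5 M, so these cells are read as dim and not as absent RNA.

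The subunits were higher at 0.5 M as a group. Of the 33 measured subunits, 30 had a difference above 0, whereas 53.8% of all measured genes did. Their median difference was 0.66, with quartiles of 0.31 and 0.93 and a range from -0.47 to 1.37, against 0.05 for all genes. At least 2-fold higher were 5 subunits (15.2%), against 5.10% of all genes, and at least 2-fold lower were 0, against 2.77%. The 5 were the N module subunits Ndufa7, Ndufv3 and Ndufa6 and the membrane arm subunits Ndufb7 and Ndufa11. The number past 2-fold rests on the scaling: it was 2 with the values as deposited, 2 with quantile normalization and 3 with loess, and only Ndufa7 was among them in each. The only error these arrays allow is disagreement between probes of the same gene. The pooled SD of probe differences within a gene was 0.58 over 635 genes, much the same as the SD of 0.57 over all measured genes. For the 23 genes with several probes at 128 or more, the pooled SD was 0.39. Single differences up to about these probe SDs are not separable from probe disagreement. Those of Ndufa7, Ndufv3, Ndufa6 and Ndufb7, bright probes with differences from 1.15 to 1.37, were larger than both probe SDs. The spread between vesicle preparations is unknown.

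**Figure D1:**
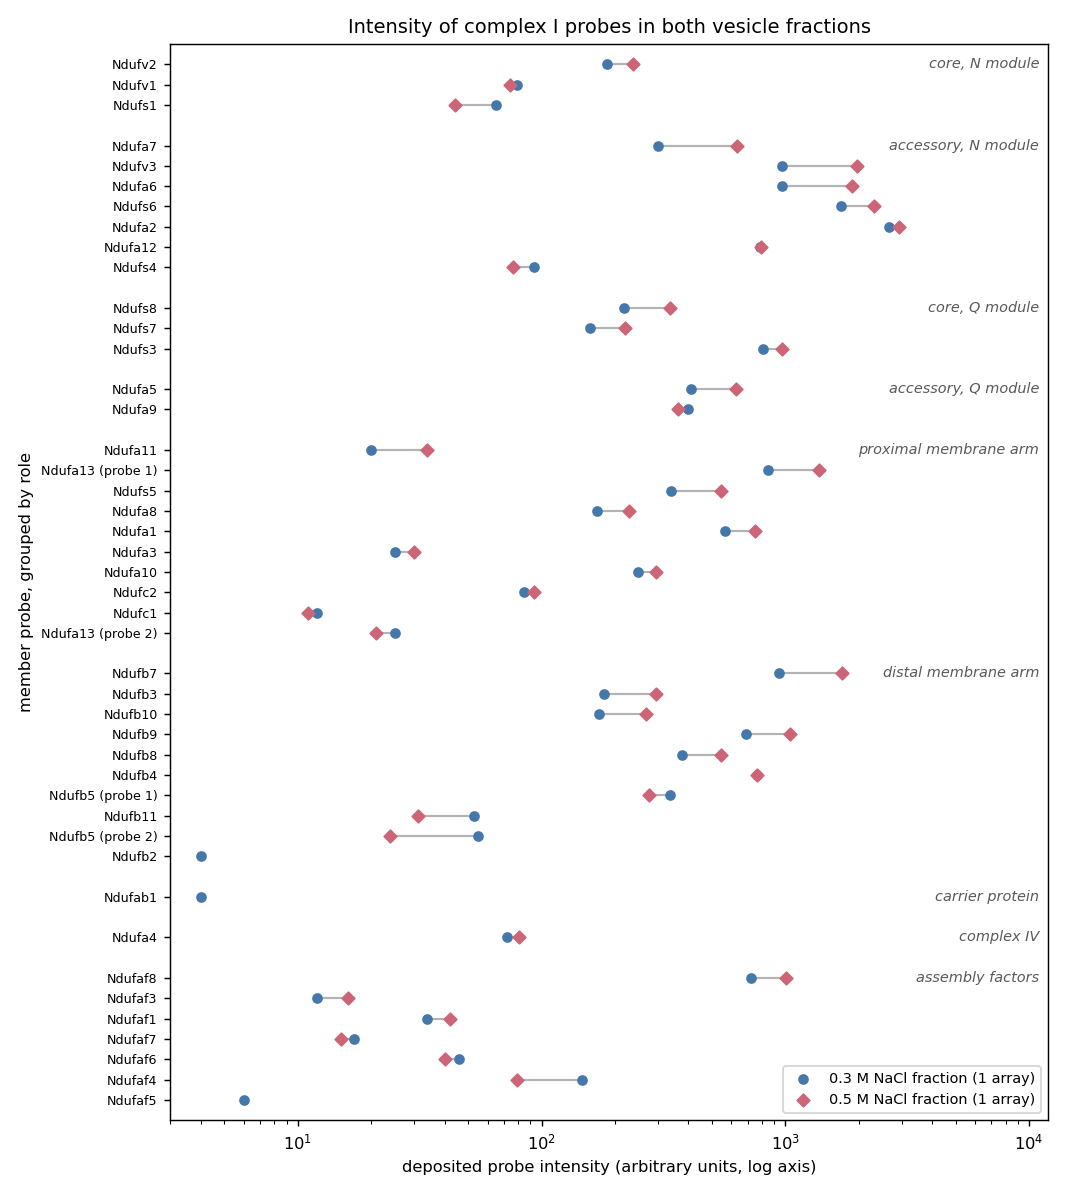
Deposited intensity (arbitrary units, log axis) of each member probe at 0.3 M NaCl (circles) and 0.5 M NaCl (diamonds), grouped by role, with 1 array per fraction. Ndufa7 went from 300 to 631 and Ndufaf4 from 147 to 79; Ndufb2, Ndufab1 and Ndufaf5 have a circle only.

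The catalytic core was higher at 0.5 M in 5 of 6 measured subunits, against 53.8% of all genes, with a median difference of 0.61. In the N module, Ndufv1, which binds NADH and the flavin, was at 79 and 74 (0.21). Ndufv2, which carries an iron-sulfur cluster beside it, went from 185 to 237 (0.66). Ndufs1, the large subunit that holds several iron-sulfur clusters, went from 65 to 44 (-0.26) and was the core subunit below 0. These N module core subunits therefore lay on both sides of 0. The Q module core lay above 0 throughout. Ndufs8, which holds iron-sulfur clusters on the path to ubiquinone, went from 217 to 337 (0.93), and Ndufs7, which carries the last cluster before ubiquinone, from 158 to 219 (0.77). Ndufs3, a structural part of the Q module, went from 807 to 972 (0.57). With the values as deposited Ndufv1 was at -0.09, so its sign rests on the centring.

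Accessory subunits of the N module included the largest differences of the complex. Ndufa7 went from 300 to 631 (1.37), Ndufv3, a small subunit bound near the NADH site, from 967 to 1970 (1.33), and Ndufa6, which sits where the matrix arm meets the membrane arm, from 966 to 1868 (1.25). These lay at percentiles 98.5, 98.3 and 97.8 of all measured genes. Ndufs6, a zinc-binding subunit, went from 1686 to 2308 (0.75) and Ndufa2, with a thioredoxin-like fold, from 2667 to 2928 (0.43). Ndufa12 was at 788 and 795 (0.31), the size of the centring shift alone. Ndufs4, a subunit needed for a stable N module, went from 93 to 76 and had a difference of 0.01. So the 7 accessory subunits of this module ran from no difference to the top of the complex. The array annotation pairs the probes of Ndufa7 and Ndufs6 with noncoding transcript records of these genes, and which transcripts they bind is not known here. In the Q module, Ndufa5 went from 411 to 630 (0.92), while Ndufa9, which binds a nucleotide at the junction with the membrane, was at 398 and 364 (0.17, and -0.13 as deposited).

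The proximal membrane arm was above 0 in all 9 measured subunits after centring, with a median of 0.56, against 53.8% of all genes. With the values as deposited 8 of 9 were above 0, against 30.7% of all genes. Ndufs5 went from 338 to 546 (0.99), Ndufa8 from 169 to 228 (0.73) and Ndufa1 from 564 to 748 (0.71). Ndufa11, a subunit that spans the inner membrane, had a difference of 1.07 from the dim values 20 and 34, and 0.67 with a pseudocount of 16. Ndufa13, also known as GRIM-19, had 2 probes, one going from 848 to 1378 (1.0) and one dim at 25 and 21 (0.05). The mean of these, 0.52, joins 2 unlike values. Ndufc1 was dim at 12 and 11 (0.17), and Ndufc2 was at 85 and 93 (0.43).

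The distal membrane arm held both high and low members. Ndufb7 went from 943 to 1704 (1.15), Ndufb3 from 181 to 294 (1.0, just under 2-fold), Ndufb10 from 172 to 268 (0.94), Ndufb9 from 689 to 1045 (0.90) and Ndufb8 from 378 to 542 (0.82). Ndufb4 was at 764 and 766 (0.30), the size of the centring shift alone. Against these, Ndufb11 went from 53 to 31 (-0.47). Ndufb5 had 2 probes, one going from 336 to 277 (0.02) and one from 55 to 24 (-0.90), with a mean of -0.44. The median over the 8 measured subunits of this arm was 0.86, with 6 above 0 under each of the 5 scalings tried. Over these scalings the share of all genes above 0 ran from 30.7% to 55.1%. Ndufb7, Ndufb10, Ndufs5 and Ndufa8 are known for paired cysteines that form disulfides in the intermembrane space. Picked out after their values were seen, these 4 lay between 0.73 and 1.15. Ndufa4, named as a complex I subunit and now assigned to cytochrome c oxidase, went from 72 to 81 (0.47). Without it the subunit median was 0.68.

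The assembly factors lay lower than the subunits, at a median difference of 0.36 over 6 measured genes. Of these 5 were above 0, against 53.8% of all genes, and 0 were past 2-fold in either direction. Among all genes 5.10% were at least 2-fold higher and 2.77% at least 2-fold lower, so 0 of 6 does not set these factors apart. Ndufaf8, the partner that stabilises Ndufaf5, went from 721 to 1005 (0.78) and was the only bright one. Ndufaf1, which acts in assembly of the membrane arm, went from 34 to 42 (0.60). Ndufaf3 was dim at 12 and 16 (0.71), although it works as a pair with Ndufaf4, which went from 147 to 79 (-0.60), the lowest difference of all members. Ndufaf6 was at 46 and 40 (0.10), and Ndufaf7, a methyltransferase, at 17 and 15 (0.12). The direction of the weaker ones rests on centring: with the values as deposited the median was 0.06 and 3 of 6 were above 0. All measured genes then had a median of -0.25, with 30.7% above 0.

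Other proteins that build complex I, which the symbol rule does not take, were lower still. Of 11 such genes, all measured, 4 were above 0 (36.4%, against 53.8% of all genes) and 7 below. Their median of -0.13 was negative under each of the 5 scalings tried. As deposited, all genes had a negative median too, -0.25 against -0.43 for these factors. In that setting 27.3% of these factors were above 0, near the 30.7% of all genes. Timmdc1, a membrane arm assembly factor, went from 175 to 72 (-0.98). Its partners in the membrane arm assembly complex were dim. Of these Ndufaf1 was above 0, as given above, and the others were below 0, with Tmem186 going from 23 to 11 (-0.76), Tmem126b from 12 to 7 (-0.48), Acad9 from 26 to 18 (-0.23) and Ecsit from 27 to 20 (-0.13). The iron-sulfur cluster protein Nubpl went from 72 to 52 (-0.17) and Foxred1, a late factor, from 38 to 29 (-0.09). Above 0 were Dmac2 (174 and 158, 0.16, and -0.14 as deposited), Aifm1 (43 and 49, 0.49), Lyrm2 (36 and 42, 0.52) and Dmac1 (241 and 286, 0.55). Counted with the Ndufaf genes, the 17 measured factors had a median of 0.10, with 9 above 0, so the gap to the subunit median was 0.56 in place of 0.30. Genes of 1 array pair are not replicates, so this gap has no test. Of the 7 mitochondrially encoded subunits, looked for by symbol (mt-Nd1 to mt-Nd6), 0 were among the genes named on the array, so they have no values here.

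**Figure D2:**
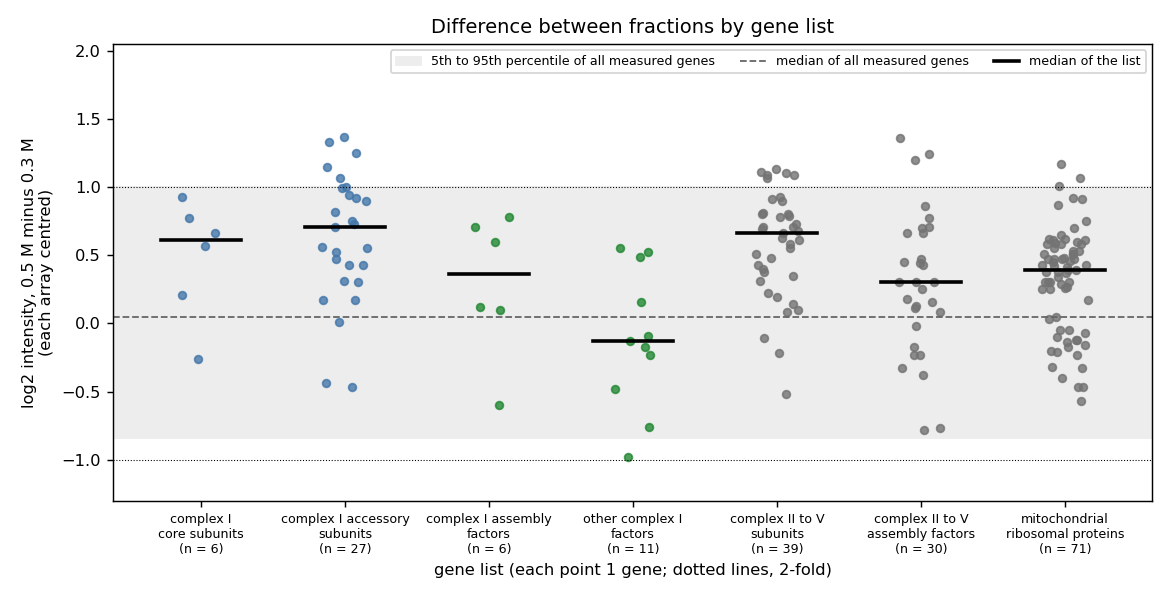
Difference between fractions (log2 intensity at 0.5 M minus 0.3 M, each array centred) for each gene of 7 lists, with the list median as a bar and the 5th to 95th percentile of all measured genes shaded. The medians are 0.61 for core and 0.71 for accessory subunits, 0.36 for assembly factors and -0.13 for other complex I factors.

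Brightness separated subunits from factors as well, and differences moved with brightness across the whole array. Of the 33 subunits 23 had a geometric mean intensity of 128 or more, but only 1 of the 6 assembly factors, Ndufaf8, and 2 of the 11 other factors, Dmac1 and Dmac2. For all genes the median difference was 0.02 under 128, 0.17 from 128 to 512 and 0.46 at 512 or more. Across the subunits, which share both arrays, level and difference had a Pearson r of 0.47 and a Spearman rho of 0.45 (n = 33), against 0.11 and 0.07 over all 13735 genes. Each gene was therefore also set against the 400 genes nearest to it in mean level, by subtracting their median difference. After that step the subunits had a median of 0.44 with 25 of 33 above 0, and the assembly factors 0.27 with 5 of 6 above 0, where 49.4% of all genes lay above 0. The gap between subunits and assembly factors was then 0.17. By part of the complex, the median after the step was 0.18 for the N module and 0.61 for the Q module. It was 0.45 for the proximal and 0.56 for the distal membrane arm. The 7 accessory subunits of the N module went from a median of 0.75 to 0.20, with 4 above 0 after the step.

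Ranges of brightness, chosen after the values were seen, show where the subunits stood apart from other genes of like level. From 128 to 512, all 13 subunits were above 0, with a median of 0.82 and a range from 0.17 to 1.37, while 61.7% of all genes in that range were above 0. At 512 or more, all 10 subunits were above 0 with a median of 0.73, against 71.2% of genes. In that range 3 of 10 subunits were past 2-fold, against 13.8% of genes, and after the level step their median was 0.34. Under 128, 7 of 10 subunits were above 0 with a median of 0.19, and 4 of 5 assembly factors with a median of 0.12. Of all genes under 128, 51.6% were above 0. Among genes of that brightness the gap between subunits and Ndufaf genes was 0.07. The 9 other factors in the same range had a median of -0.17. Ndufa2, at a difference of 0.43, lay below its neighbours in level (-0.17 after the step), and Ndufa12 and Ndufb4 lay at 0.00. Ndufa7 was at 1.12 after the step, Ndufa11 at 1.04, and Ndufv3 and Ndufb3 both at 0.82.

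**Figure D3:**
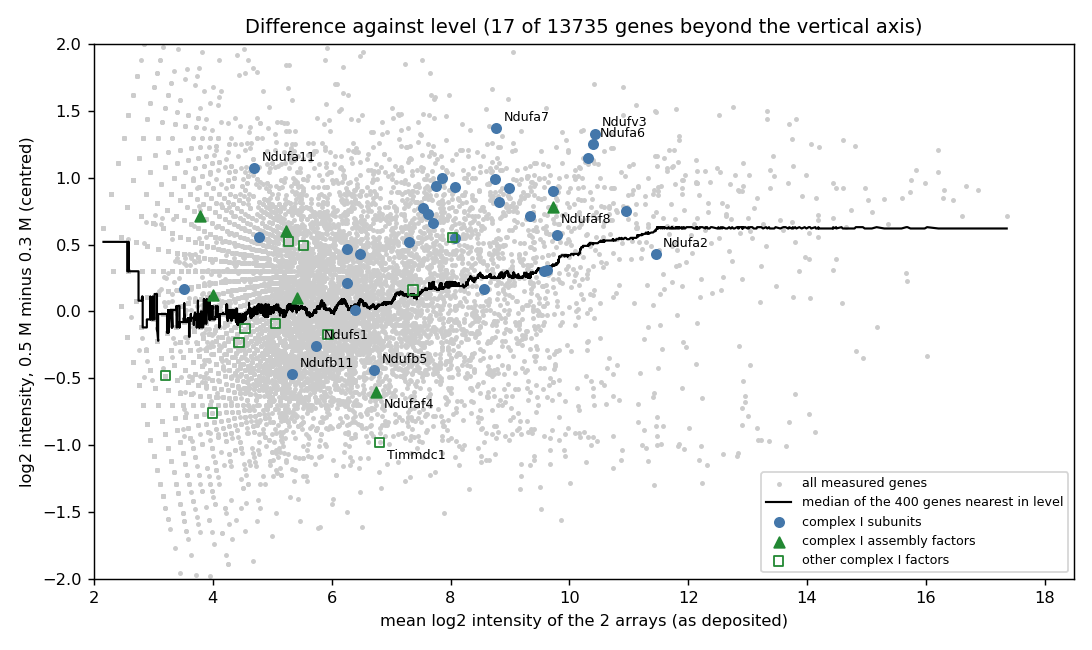
Difference between fractions (log2, centred) against the mean log2 intensity of both arrays, with all measured genes in grey, the median of the 400 genes nearest in level as a line, subunits as circles, assembly factors as triangles and other factors as squares. Of the 33 subunits 25 lie above the line; Ndufb11, Ndufb5 and Ndufs1 lie below 0, as do Ndufaf4 and Timmdc1.

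Other nuclear genes of respiration had differences much like those of complex I. The 39 measured subunits of complexes II to V had a median of 0.66, the same as complex I. Of these 36 were above 0 and 6 at least 2-fold higher, against 53.8% and 5.10% of all genes. At 512 or more, where 25 of the 39 lie, the shares of all genes were 71.2% and 13.8%. The highest of these subunits were Atp5e (3359 to 5982, 1.13), a small subunit of ATP synthase, and Cox8a (5837 to 10236, 1.11), of cytochrome c oxidase. The lowest were Atp5a1 (10289 to 5850, -0.52), the alpha subunit of ATP synthase, and Uqcrfs1 (559 to 389, -0.22), the Rieske iron-sulfur protein of complex III. Those subunits were brighter, and after the level step their median was 0.23 against 0.44 for complex I. Before that step the medians by brightness were 0.40 over 3 genes under 128, 0.43 over 11 genes from 128 to 512 and 0.71 over 25 genes at 512 or more. For complex I they were 0.19, 0.82 and 0.73 in the same ranges, so the order of the 2 sets changed with brightness. The 30 assembly factors of complexes II to V had a median of 0.30, with 22 above 0, close to the 0.36 of the Ndufaf genes. At least 2-fold higher were 3 of these 30, and 0 were at least 2-fold lower. After the level step their median was 0.23, the same as for the subunits of complexes II to V. The Ndufaf genes were then at 0.27, below the 0.44 of the complex I subunits. For 71 mitochondrial ribosomal proteins the median was 0.39, and 0.24 after the level step. No test of these gaps can be made with 1 array per fraction.

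**Figure D4:**
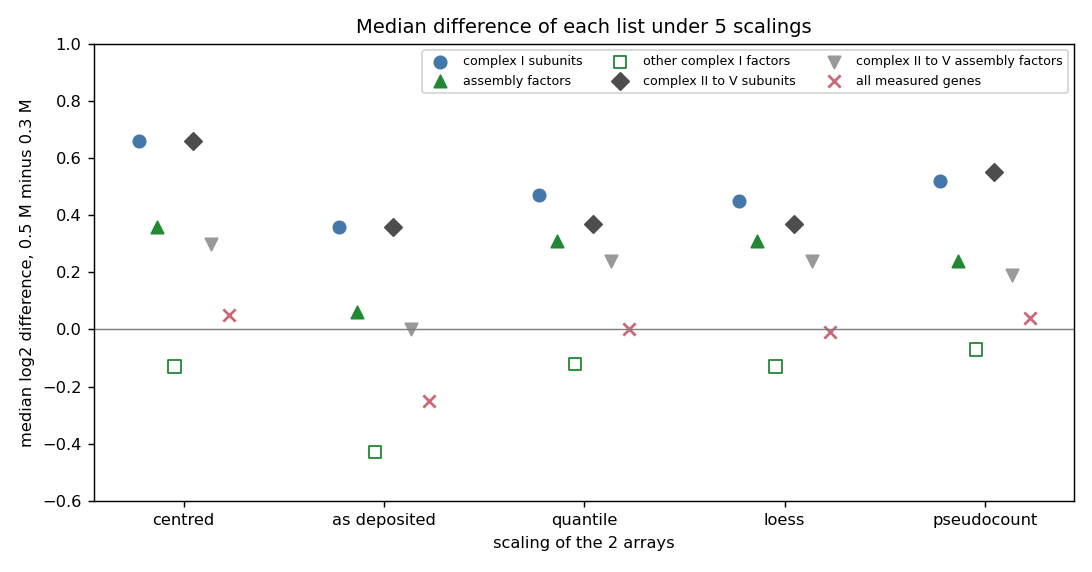
Median difference (log2, 0.5 M minus 0.3 M) of 6 gene lists under 5 scalings of both arrays. The complex I subunits stay above all measured genes in each scaling, from 0.36 against -0.25 as deposited to 0.66 against 0.05 with centring. The other complex I factors stay below 0, at -0.43 as deposited, where the median of all genes is negative too.

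The split of all genes rests on the scaling, which bears on how the subunits are read. At least 2-fold higher were 701 genes and at least 2-fold lower 380 with centring, against 282 and 1204 as deposited, 499 and 518 with quantile normalization and 503 and 502 with loess. Of the 33 subunits, 26 were above 0 as deposited, 28 with quantile normalization, 28 with loess and 29 with a pseudocount, and 0 were 2-fold lower in any of these. The shares of all measured genes above 0 in the same settings were 30.7%, 48.0%, 49.1% and 55.1%. Beside the complex I values, markers of the labelled cell were measured for 7 of 7 genes. With centring, 5 of 7 were above 0, against 53.8% of all genes, with a median difference of 0.52. Their summed intensities, as deposited and not centred, were 7502 at 0.3 M and 6989 at 0.5 M. Such sums join probes that are not on 1 scale and follow the brightest. This one was led by Cd8a (3677 and 2463, -0.28) and Gzmb (2493 and 2838, 0.49), while Cd3e was dim at 12 and 14. Of the markers of other cells, sums of deposited intensities over genes with both values went from 17143 to 7924 for red cells (4 of 6 genes). They went from 355 to 486 for B cells (4 of 6) and from 125 to 132 for myeloid cells (4 of 6). The B cell sum turned on Cd79b (94 to 328, 2.10), since Cd22 (225 to 126, -0.54) and Cd79a (15 to 11, -0.15) were below 0 and Ms4a1 was at 21 on both arrays. The median difference was 0.08 for B cell, 0.36 for myeloid and -0.73 for red cell markers. Their part in the complex I differences was not tested. In such bulk RNA, more vesicles of a kind and more RNA per vesicle cannot be told apart.

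Since most subunits lay on the same side of 0, their promoters were searched for letters tied to regulators of respiratory genes. RefSeq promoters of build GRCm38.p6, from 250 bases before to 50 after the start, were matched for 38 of the 42 genes, giving 40 promoters. The core letters GCGCATGC of the factor NRF1, or their reverse complement, were in 5 of 40 (12.5%), against 2.71% of all 32851 promoters. Both strands can match in overlapping letters. The letters AAGATGGC, bound by YY1, were in 8 of 40 (20.0%), against 2.75%, and in each of the 8 they followed the start. The ETS letters CCGGAAGT were in 1 (2.5%), against 3.89%. Matches were found at high and low members alike. The NRF1 letters were found for Ndufa6 (1.25), Ndufa11 (1.07) and Ndufa8 (0.73), for Ndufaf4 (-0.60), the lowest member, and for Ndufaf5, which had an empty cell. The YY1 letters were found for Ndufb8, Ndufaf8, Ndufs7, Ndufs6 and Ndufa3, with differences from 0.56 to 0.82, and for Ndufc1, Ndufa9 and Ndufs4, with differences from 0.01 to 0.17.

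The 4 upstream stretches with NRF1 letters are shown because they join 3 subunits that were higher at 0.5 M with the assembly factor that was lowest. Each is the 130 bases before the start on the gene's strand, and capitals mark the matched letters. They lie at chr15:82354292-82354421 (minus strand, Ndufa6), chr17:56717632-56717761 (plus, Ndufa11), chr2:36049339-36049468 (minus, Ndufa8) and chr4:24897953-24898082 (plus, Ndufaf4).
Ndufa6: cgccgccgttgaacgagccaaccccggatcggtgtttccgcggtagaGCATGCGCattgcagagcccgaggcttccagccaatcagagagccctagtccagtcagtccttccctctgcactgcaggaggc
Ndufa11: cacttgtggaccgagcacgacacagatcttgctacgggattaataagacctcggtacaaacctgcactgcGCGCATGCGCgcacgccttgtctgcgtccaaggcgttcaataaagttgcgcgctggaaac
Ndufa8: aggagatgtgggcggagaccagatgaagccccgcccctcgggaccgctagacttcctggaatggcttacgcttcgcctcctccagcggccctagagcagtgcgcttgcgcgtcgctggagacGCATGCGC
Ndufaf4: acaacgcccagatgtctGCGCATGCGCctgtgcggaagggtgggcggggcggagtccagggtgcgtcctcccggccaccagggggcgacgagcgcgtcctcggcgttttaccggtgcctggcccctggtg

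The YY1 letters of a Q module core subunit and of the brightest assembly factor, with differences of 0.77 and 0.78, are shown as 30 bases each, at chr10:80249462-80249491 (plus strand, Ndufs7) and chr11:120098933-120098962 (plus, Ndufaf8). Capitals again mark the match, which is a description and not a binding site.
Ndufs7: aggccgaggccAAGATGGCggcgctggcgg
Ndufaf8: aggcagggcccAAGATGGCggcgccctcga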

How the data were processed

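The authors deposited 1 table of probe intensities on a linear scale, in whole numbers with empty cells, for 23473 probes on 2 arrays. Amplification and Cy5 labelling are per the labels' protocols. Scanner, background correction, normalization and the rule for empty cells were not given in the sources used here, and the number of arrays limits precision. Probes were named through the platform annotation, with symbols looked up by gene identifier (20556 probes) or accession (9) in a RefSeq table of GRCm38.p6; 125 kept the annotated symbol and 2783 had none. Intensities were log2-transformed and centred on the median of the 16154 probes with both values, since the shared medians, 32 and 26, differed. Probes of a gene were averaged. No filter on dim genes was used, so that every measured member counts. The level step subtracts the median difference of the 200 genes on each side in mean level. Genes named in the text were every measured core subunit and complex I factor, the 10 highest and 6 lowest subunits, members with an empty cell, and others as examples of their group. Members, lists and rules were chosen with earlier results of these data known. Alternatives were deposited values, quantile normalization, loess (span 0.3), a pseudocount of 16, a filter on dim genes, the brightest probe, leaving out Ndufa4 and 1000 level neighbours. A comparison by protein length was planned and not run, since protein sequences were not used here. Scripts in Python 3.11.15 (numpy 2.4.6, pandas 2.3.3) were tested on simulated data.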

Additional observations from a re-analysis of the deposited data

How the results depend on the processing

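With no replicate arrays, any change in the second decimal of a median is given. For subunits, the median difference of 0.66 was 0.36 as deposited, 0.47 with quantile normalization, 0.45 with loess, 0.52 with the pseudocount, 0.68 with the filter on dim genes (30 subunits and 4 factors left), 0.71 with the brightest probe and 0.68 without Ndufa4. The 5 subunits past 2-fold became 2 as deposited, 2 with quantile normalization and 3 with loess. For assembly factors, 0.36 became 0.06, 0.31, 0.31, 0.24 and 0.35 under the first 5 of these settings. The gap of 0.30 was 0.16 with quantile normalization, 0.13 with loess, 0.28 with the pseudocount, 0.33 with the filter, 0.35 with the brightest probe and 0.32 without Ndufa4. After the level step, the subunit median of 0.44 was 0.41 with the pseudocount, 0.43 with the filter, 0.47 with the brightest probe, 0.45 without Ndufa4 and 0.42 with 1000 neighbours. The factor median of 0.27 was 0.25 with quantile normalization, then 0.20, 0.26, 0.31 and 0.24 under the pseudocount, filter, brightest probe and 1000 neighbours, and the gap of 0.17 was 0.18, 0.21, 0.18, 0.16 and 0.18, with 0.18 without Ndufa4. Under 128 in intensity, an alternative chosen after seeing the data, subunits were at 0.19, factors at 0.12 and the gap at 0.07. Of the 10 subunits in that range 7 were above 0 and 1 was past 2-fold, against 51.6% and 4.34% of all genes there. After the level step the subunits, factors and gap were at 0.14, 0.10 and 0.04. With the other factors added, also chosen after seeing the data, factors were at 0.10 and the gap at 0.56, and after the level step at 0.04 and 0.40. None of these medians, nor the gap, changed sign, though for the factors as deposited the value is near 0. The median of all measured genes as deposited was -0.25. The cause of these shifts was not tested. No paired analysis was possible because each fraction has 1 array. Single genes were set against the probe SD of their brightness (0.39 at 128 or more, 0.58 below). The deposited values move every gene by the same centring shift, 0.30 in size. That is below both SDs, so that setting could not move any gene by more. Of 63 genes set out one by one, all moved by less than this SD with the pseudocount. Quantile normalization moved 2 by more, Ndufa2 to 0.04 and Gzmb to 0.09, and loess 3, Atp5a1 to -0.99, Atp5e to 0.71 and Cox8a to 0.64. Low signal limits the assembly factors and the other factors, most of which lie under 128.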

Other observations

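Outside the symbol rule, 2 genes with names like those of subunits were also measured on both arrays. Ndufa11b, named after Ndufa11, went from 87 to 160 (a centred log2 difference of 1.18), and Ndufa11 itself from 20 to 34 (1.07). Ndufa4l2, a relative of Ndufa4, went from 586 to 644 (0.44), and Ndufa4 from 72 to 81 (0.47). Each rests on 1 probe, and whether probes of such related genes bind each other's RNA was not tested.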
